A study of Mus musculus with 3 samples.

Results

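The KDM7 family of histone demethylases consists in the mouse of Phf8, Phf2 and Kdm7a. Its 3 genes were taken by symbol from the 46095 gene symbols of the count table, and all 3 passed the filter on low counts that left 18216 genes to be tested. RNA came from prostate tumors of TRAMP mice, a C57BL/6 transgenic line in which the viral SV40 oncoprotein is made in the prostatic epithelium, under a probasin promoter, and drives cancer there. The Phf8-KO TRAMP group was 2 libraries (Phf8-KO1 and Phf8-KO2), and the control TRAMP group, wild type for Phf8, was 1 library. Both groups carried the transgene, every library was a pool of equal RNA mass from 3 mice, and all mice were 37 weeks old. The Phf8-KO animals came from crosses of Phf8 knockout females with TRAMP males. The question was how the messages of the targeted enzyme and of its closest relatives stood in tumors of the knockout animals.

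Each KDM7 protein joins a PHD finger, which binds histone H3 methylated at lysine 4 near active promoters, to a JmjC domain, which removes methyl groups with iron, oxygen and 2-oxoglutarate. PHF8 (KDM7B) takes methyl groups from H3K9me1/2, H3K27me2 and H4K20me1 and acts as a coactivator at ribosomal RNA genes and at E2F target genes. PHF2 (KDM7C) acts on H3K9me2 once it is phosphorylated and bound to ARID5B, and KDM7A acts on H3K9me1/2 and H3K27me1/2. Mutations of human PHF8 cause an X-linked intellectual disability with cleft lip or palate.

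In GRCm38 coordinates, Phf8 spans chrX:151520641-151633859 on the forward strand, Phf2 spans chr13:48801750-48870885 on the reverse strand and Kdm7a spans chr6:39136620-39206773 on the reverse strand. GENCODE M21 gives at most 22 exons to a Phf8 transcript, 22 to a Phf2 transcript and 20 to a Kdm7a transcript. The merged exons cover 9318 bp for Phf8, 5494 bp for Phf2 and 10057 bp for Kdm7a. The annotated overlaps are small for both PHF genes. No exonic base of Phf8 is shared with another gene, the antisense gene Phf2os1 overlaps Phf2 by 8 bp, and the antisense gene 4930599N23Rik shares 287 exonic bp with Kdm7a. The strand setting of the counting is not given in the sources used here, so reads from that stretch of Kdm7a and from its antisense partner cannot be told apart.

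The start regions of the family differ in base composition. In the 250 bases before the RefSeq start site (GRCm38), Phf8 held 19 CpG dinucleotides at 60% GC, Phf2 held 50 at 85.6% GC and Kdm7a held 56 at 82% GC. Of 32851 RefSeq promoter windows of the same length, 80.3% held fewer CpGs than that of Phf8, 99.9% fewer than that of Phf2 and 99.99% fewer than that of Kdm7a. The Phf8 and Kdm7a stretches are shown to compare a start region of the lower with one of the higher CpG content, up to the first base of any annotated transcript. Nearly all of the Phf2 window, 234 of its 250 bases, lies inside an annotated transcript in GENCODE and is not shown. Capitals mark matches to motifs, and the bases run 5′ to 3′ on the strand of the gene.
Phf8, chrX:151520422-151520640, forward strand: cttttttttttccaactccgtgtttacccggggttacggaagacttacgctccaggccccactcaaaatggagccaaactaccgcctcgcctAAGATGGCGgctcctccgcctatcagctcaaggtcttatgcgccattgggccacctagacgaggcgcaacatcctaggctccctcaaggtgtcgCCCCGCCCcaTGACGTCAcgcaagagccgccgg
Kdm7a, chr6:39206790-39207023, reverse strand: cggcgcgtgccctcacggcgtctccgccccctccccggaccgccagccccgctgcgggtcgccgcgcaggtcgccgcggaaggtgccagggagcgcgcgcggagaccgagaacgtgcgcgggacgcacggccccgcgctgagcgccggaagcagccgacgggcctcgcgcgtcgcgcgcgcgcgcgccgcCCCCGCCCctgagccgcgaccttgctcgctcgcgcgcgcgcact
The motifs, chosen after the sequences had been seen, were searched on both strands. Positions count from the RefSeq start site of each window, with the base before it as -1. For Phf8 this site is chrX:151520672, and the last 31 bases of its window lie inside an annotated transcript and are not printed. The cyclic AMP response element TGACGTCA began at -54 in Phf8 and is in 1.55% of all windows. The YY1 motif AAGATGGCG began at -158 in Phf8 and is in 0.606% of windows. The Sp1 motif GGGCGGGG, in 16.1% of windows, was found once in each of the 3 windows, always on the opposite strand. The E2F motif TTTCCCGC, in 0.895% of windows, was found in none of them. No 2 matches overlapped. A match is only a string of letters, and no binding was measured.

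Sequencing gave 26747443 counts for Phf8-KO1, 31876182 for Phf8-KO2 and 29954020 for TRAMP. Levels are CPM, the counts scaled to library sizes that were normalized by TMM, with exact 95% intervals that cover counting error only. The labels do not name the mice in the pools, so p-values measure the spread between the 2 Phf8-KO pools, which the single TRAMP pool had to share in the fit. The luminal epithelial markers of prostate (7 genes, among them Krt8, Krt18 and Epcam) summed to 4492 and 4023 CPM in the Phf8-KO pools, against 4117 CPM in TRAMP. Only the sum was even, since 3 of these markers were above TRAMP in both Phf8-KO pools and 3 below it in both. Sums of several other lists were less even. All 6 skeletal muscle markers were lower in both Phf8-KO pools (summed 72.8 and 10.8 CPM, against 1351 CPM in TRAMP), as were all 4 adipocyte markers (18.8 and 30.7 CPM, against 630.3 CPM). All 4 seminal vesicle markers were higher (1362 and 1947 CPM, against 109.8 CPM). Neuroendocrine markers summed to 39.2 and 20.7 CPM in Phf8-KO, against 78.6 CPM in TRAMP, with 3 of 5 lower in both pools. Smooth muscle markers summed to 3600 and 270.1 CPM in the Phf8-KO pools, against 432 CPM in TRAMP. No marker of any list was at 0, and the part of these tissues in the values of the KDM7 genes was not tested. In such bulk RNA, fewer cells of a type and less RNA per cell cannot be told apart.

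Phf8 message was still counted in the pools labelled Phf8-KO. Phf8 had 399 and 528 reads in Phf8-KO1 and Phf8-KO2, against 561 reads in TRAMP. These were 15.0 CPM (13.5 to 16.5) and 15.9 CPM (14.6 to 17.4) in the Phf8-KO pools, against 19.4 CPM (17.8 to 21.1) in TRAMP. Both Phf8-KO pools lay below the TRAMP pool, with intervals that did not overlap its interval, and close to each other. Together the Phf8-KO pools had 0.799 of the TRAMP level (0.718 to 0.889), and the Phf8-KO1 to Phf8-KO2 ratio was 0.940 (0.823 to 1.07). The mean was 15.5 ± 0.679 CPM in Phf8-KO (SD, n = 2). The fitted log2 fold change of Phf8-KO over TRAMP was -0.33 (SE 0.25), which passed neither the quasi-likelihood test of edgeR (adjusted p = 0.438) nor DESeq2 (adjusted p = 0.689). A difference of this size was common, since 73.7% of genes tested had a larger log2 fold change in either direction, and 42.8% were below TRAMP in both Phf8-KO pools.

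The table holds 1 count for the whole of Phf8, with no value per exon, and the sources used here do not say which part of the gene the knockout allele lacks. Reads from any exon that remains in the allele enter the same count. The total therefore neither checks the genotype of these pools nor measures functional PHF8, and "Phf8-KO" stands here for what the labels say.

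Phf2 differed most between the genotypes. Phf2 had 1907 and 2558 reads in the Phf8-KO pools, against 838 reads in TRAMP. Its level was 71.6 CPM (68.4 to 74.9) and 77.2 CPM (74.2 to 80.3) in the Phf8-KO pools, against 29.0 CPM (27.1 to 31.0) in TRAMP. The 2 Phf8-KO pools thus stood together, far above TRAMP. The mean was 74.4 ± 3.98 CPM in Phf8-KO (SD, n = 2), a fitted 2.56-fold of TRAMP and a log2 fold change of 1.36 (SE 0.20). The count ratio to TRAMP was 2.47 (2.27 to 2.68) for Phf8-KO1 and 2.66 (2.46 to 2.88) for Phf8-KO2. In the quasi-likelihood test of edgeR, which has 1 residual degree of freedom here, the adjusted p was 0.101 and Phf2 did not pass the threshold of 0.05. Under DESeq2, the tool the study used, it passed with an adjusted p of 0.000368. By edgeR 0 genes passed in the higher direction (0% of genes tested) and 7 genes (0.0384%) in the lower one. With no adjustment, 2717 genes (14.9%) were higher and 2225 (12.2%) lower at p under 0.05. DESeq2 called 1533 genes (9.42% of those with an adjusted p) higher and 747 (4.59%) lower. A fitted fold over 2 was found for 17.5% of genes tested, and 88.7% of genes had a lower log2 fold change than Phf2.

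Kdm7a differed more between the 2 Phf8-KO pools than between the genotypes. Kdm7a had 1031 and 2049 reads in the Phf8-KO pools, against 1923 reads in TRAMP. Phf8-KO1 was at 38.7 CPM (36.4 to 41.1) and Phf8-KO2 at 61.8 CPM (59.2 to 64.6), against 66.6 CPM (63.6 to 69.6) in TRAMP. Phf8-KO1 was low, and Phf8-KO2 was near TRAMP. The Phf8-KO1 to Phf8-KO2 ratio was 0.626 (0.580 to 0.675), whereas the ratio to TRAMP was 0.581 (0.539 to 0.627) for Phf8-KO1 and 0.929 (0.873 to 0.989) for Phf8-KO2. The mean was 50.3 ± 16.4 CPM in Phf8-KO (SD, n = 2). The log2 fold change of -0.40 (SE 0.34) did not pass (adjusted p = 0.485 by edgeR, 0.611 by DESeq2), and it was -0.78 with Phf8-KO1 alone and -0.11 with Phf8-KO2 alone. For 27.5% of genes tested the gap between the Phf8-KO pools was larger than for Kdm7a, against 82.3% for Phf8 and 78.8% for Phf2.

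**Figure D1:**
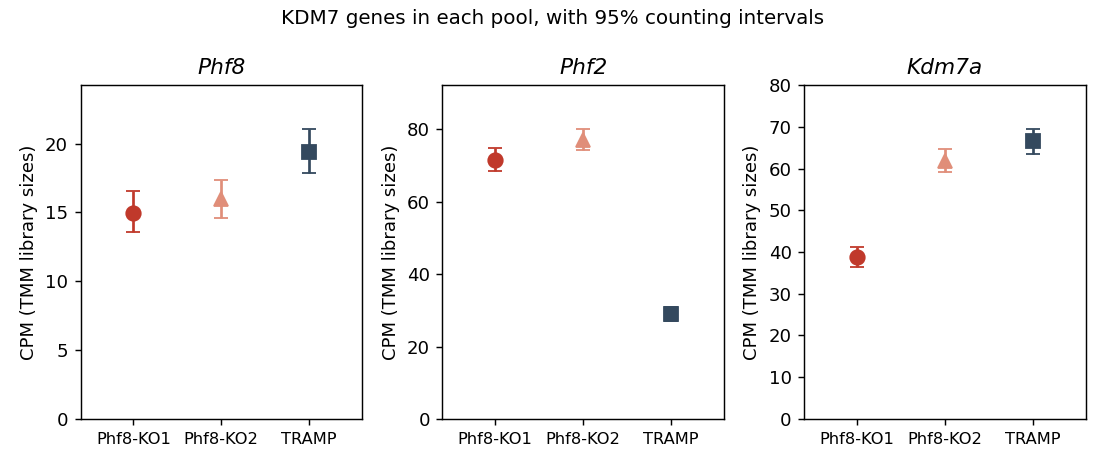
CPM on TMM library sizes (vertical axis, starting at 0 in each panel) of Phf8, Phf2 and Kdm7a in Phf8-KO1, Phf8-KO2 and TRAMP; points are single pools of 3 mice and bars are exact 95% counting intervals. Both Phf8-KO pools (71.6 and 77.2 CPM) lie above TRAMP (29.0 CPM) for Phf2, whereas Phf8 differed by less and Kdm7a separated Phf8-KO1 from the other pools.

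The joint position of the genes shows the same order. On a plot of the log2 ratio of each Phf8-KO pool to TRAMP, Phf2 lay at 1.30 and 1.41, Phf8 at -0.37 and -0.28, and Kdm7a at -0.78 and -0.11, for Phf8-KO1 first in each pair. The 2 axes share the TRAMP pool, so genes spread along the diagonal by construction.

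**Figure D2:**
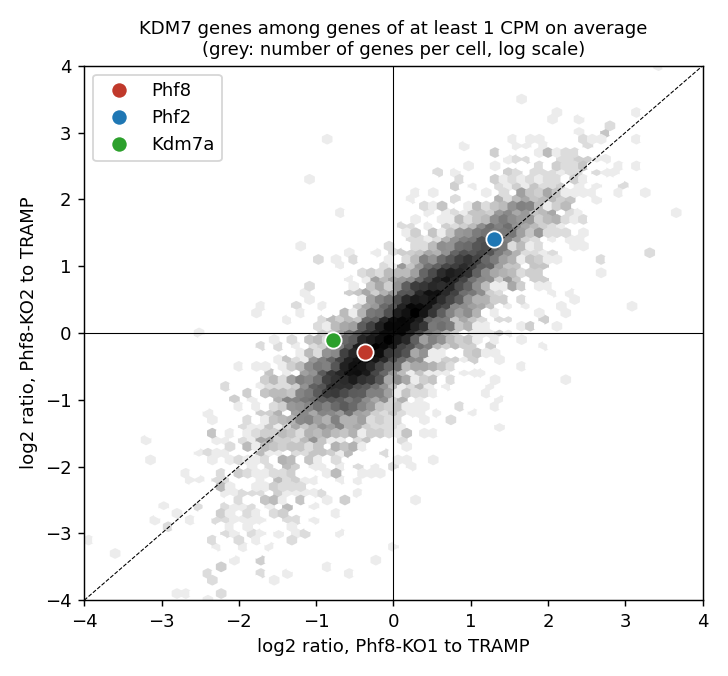
Log2 ratio to TRAMP in Phf8-KO1 (horizontal) and in Phf8-KO2 (vertical) for genes with a mean of at least 1 CPM within 4 log2 units of 0; darker grey cells hold more genes, on a log scale, and the dashed line marks equal ratios. Phf2 (1.30 and 1.41) sits near the diagonal above 0, Phf8 (-0.37 and -0.28) near the diagonal below 0, and Kdm7a (-0.78 and -0.11) off the diagonal.

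Because the exons of the genes differ in total length, their levels were compared per kilobase of exon. On this scale Phf8 was the lowest of the family in every pool, with 1.61 and 1.71 CPM per kb in Phf8-KO and 2.08 in TRAMP. Phf2 was at 13.0 and 14.1 CPM per kb in Phf8-KO, against 5.28 in TRAMP. Kdm7a was at 3.85 and 6.15 CPM per kb in Phf8-KO, against 6.62 in TRAMP. The order of the 2 upper genes therefore turned: Phf2 exceeded Kdm7a 3.39-fold (3.14 to 3.66) and 2.29-fold (2.16 to 2.42) in the Phf8-KO pools, but had 0.798 of the Kdm7a level (0.735 to 0.866) in TRAMP. Levels and shares on this scale are not corrected for the GC content of the transcripts, in which Phf2 (57.1%) and Kdm7a (39.6%) are far apart. The log2 fold changes of Phf2 and Kdm7a, 1.36 and -0.40, were 0.68 and 0.03 after the GC correction described below, so the size of this turn depends on it. Among all genes tested Phf8 stood at percentile 33.4 and 35.3 in the Phf8-KO pools, against 37.8 in TRAMP. Phf2 stood at percentile 75.9 and 76.9, against 56.9 in TRAMP.

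The summed level of the family was 18.5 and 21.9 CPM per kb in the Phf8-KO pools, against 14.0 in TRAMP. Phf8 made up 8.70% and 7.81% of this sum in Phf8-KO (mean 8.25 ± 0.63%, SD, n = 2), against 14.9% in TRAMP. Phf2 made up 70.5% and 64.1%, against 37.8% in TRAMP. Kdm7a made up 20.8% and 28.1%, against 47.3% in TRAMP. The Phf2 to Phf8 ratio per kb was 8.11 (7.27 to 9.05) and 8.22 (7.48 to 9.04) in the Phf8-KO pools, against 2.53 (2.27 to 2.82) in TRAMP. With 1 TRAMP pool these shares have no test. Per kilobase of the longest coding sequence instead, the share of Phf8 was 11.2 ± 1.29% in Phf8-KO, against 16.3% in TRAMP. On that coding scale Phf2 made up 53.9% and 46.4% of the sum in Phf8-KO, against 22.8% in TRAMP. Kdm7a made up 34% and 43.3%, against 60.9% in TRAMP. In Phf8-KO2 Phf2 was then only slightly above Kdm7a, at 23.5 against 21.9 CPM per coding kb. The size of the turn in order therefore depends on the length measure too.

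**Figure D3:**
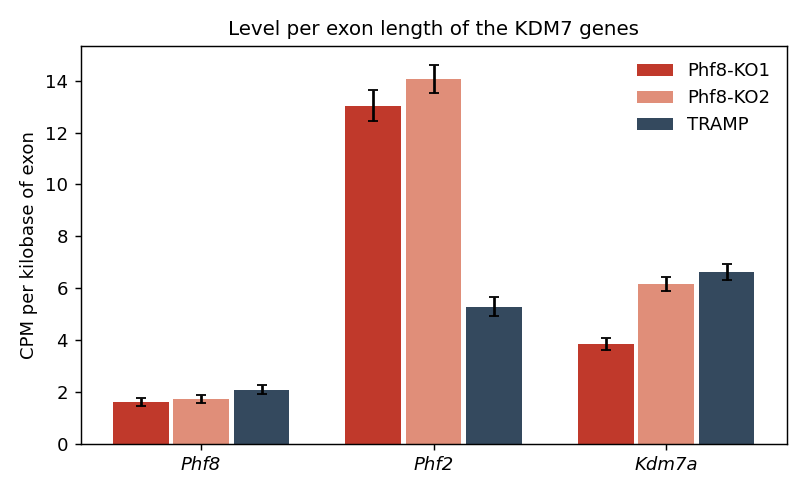
CPM per kilobase of merged exon (vertical axis, from 0) of Phf8, Phf2 and Kdm7a; bars are the pools Phf8-KO1, Phf8-KO2 and TRAMP, and error bars are exact 95% counting intervals. Phf8 is the lowest gene in each pool (1.61, 1.71 and 2.08 CPM per kb), and Phf2 lies above Kdm7a in both Phf8-KO pools and below it in TRAMP.

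The fold change of a gene moved with the GC content of its transcript in these libraries. Over 10 bins of genes ordered by GC content, the median log2 fold change was -0.47 in the lowest bin (median GC 39.6%) and 0.92 in the highest (59.3%), while the median difference between the 2 Phf8-KO pools stayed between -0.07 and 0.02. The trend separated the TRAMP library from both Phf8-KO libraries, and with 1 TRAMP library a library property and the genotype cannot be told apart. The KDM7 genes lay at different points of it. Phf2 has a GC content of 57.1%, and among the 1101 genes within 1 percentage point the median log2 fold change was 0.72, with 20.2% of them above Phf2. Kdm7a has a GC content of 39.6%, and the 685 genes around it had a median of -0.46, close to its own -0.40. Phf8 has a GC content of 49.4%, where the median of 1580 genes was 0.04 and 32.2% of them lay below it.

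With the GC trend of each library removed, the log2 fold change was 0.68 for Phf2 (adjusted p = 0.192 by edgeR), 0.03 for Kdm7a (adjusted p = 0.970) and -0.37 for Phf8 (adjusted p = 0.428). On this scale Phf2 stood at a smaller difference than without the correction, Kdm7a stood near 0 and Phf8 hardly moved. What share of the Phf2 difference comes from the GC trend was not tested.

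**Figure D4:**
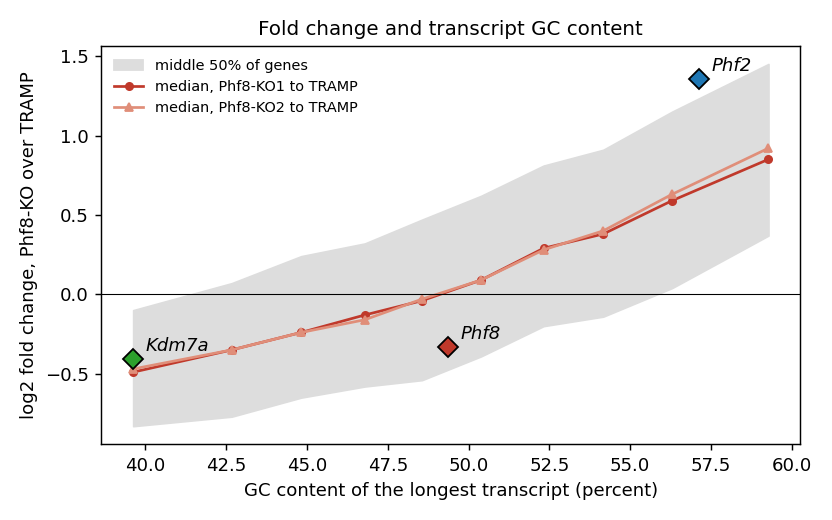
Log2 fold change of Phf8-KO over TRAMP (vertical) against GC content of the longest transcript in percent (horizontal); lines join the medians of 10 bins of genes for each Phf8-KO pool, the grey band holds the middle 50% of genes, and diamonds are the KDM7 genes. The medians run from about -0.47 at a GC content of 39.6% to 0.92 at 59.3%, with Kdm7a (-0.40) near them, Phf8 (-0.33) below and Phf2 (1.36) above.

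Genes that work with the KDM7 enzymes were followed in 7 lists of 75 genes in all, of which 73 were tested. By edgeR 0 of the 73 passed in either direction. With no adjustment, 22 were higher and 5 lower at p under 0.05, beside 14.9% and 12.2% of all genes. DESeq2 called 13 higher and 2 lower, beside 9.42% and 4.59%. Both Phf8-KO pools lay above TRAMP for 45 genes and below it for 21, where 40.8% and 42.8% of all genes did so. The median log2 fold change of the 73 was 0.44, against 0.01 for all genes tested, and 0.23 against -0.04 once the GC trend was removed. In the groups below, a gene that passed DESeq2 is named as such, and none of the genes named passed edgeR's test.

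The partner list held 11 genes whose proteins are known or only proposed to bind or share targets with KDM7 proteins. Of these genes, 8 had both Phf8-KO pools above TRAMP and 3 below (median log2 fold change 0.48). Hcfc1 encodes HCF-1, a chromatin adaptor that joins PHF8 at E2F1-bound promoters. Hcfc1 was at 106 and 111 CPM in Phf8-KO, against 45.4 CPM in TRAMP, with a log2 fold change of 1.26 (SE 0.19, adjusted p = 0.101 by edgeR, 0.000417 by DESeq2). E2f1, which drives genes of the entry into S phase, was at 40.3 and 49.1 CPM in Phf8-KO, against 17.1 CPM in TRAMP, and passed DESeq2 (adjusted p = 0.00267). Setd1a, an H3K4 methyltransferase that works with HCF-1, was at 69.6 and 93.2 CPM, against 32.4 CPM, and passed DESeq2 (adjusted p = 0.00331). Each of these genes had both Phf8-KO pools above TRAMP, as did 40.8% of all genes tested. Arid5b, the DNA-binding partner through which PHF2 is recruited, was at 72.3 and 74.9 CPM in Phf8-KO, against 43.8 CPM in TRAMP, a log2 fold change of 0.75 that passed neither test. With the GC trend removed, the log2 fold change was 0.60 for E2f1 (1.39 without the correction), 0.67 for Setd1a (1.33 without it), 0.82 for Hcfc1 and 0.83 for Arid5b.

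H4K20me1, a mark that PHF8 erases and that builds up toward mitosis, is set by KMT5A and extended by KMT5B and KMT5C, and it is bound by condensin II. Of 9 genes of this group 8 were tested, and 6 had both Phf8-KO pools above TRAMP and 1 below (median log2 fold change 0.53). Kmt5a was at 132 and 167 CPM in Phf8-KO, against 74.9 CPM in TRAMP, a log2 fold change of 0.99 (SE 0.24). Kmt5c, listed in the table as Suv420h2, was at 57.8 and 73.0 CPM, against 27.5 CPM, a log2 fold change of 1.25 (SE 0.25). Both passed DESeq2 (adjusted p = 0.0186 and 0.00537). The condensin genes Ncapg2 (0.62) and Smc4 (0.56) had smaller log2 fold changes that passed neither test. With the GC trend removed, the log2 fold change was 0.34 for Kmt5c, 0.93 for Kmt5a, 0.85 for Ncapg2 and 0.97 for Smc4.

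The enzymes that set H3K9 methylation oppose the KDM7 family. Of 6 tested, 5 had both Phf8-KO pools above TRAMP and 1 below (median 0.71). Wiz encodes a zinc finger protein of the G9a and GLP complex. It was at 54.3 and 66.0 CPM in Phf8-KO, against 22.6 CPM in TRAMP, and passed DESeq2 (adjusted p = 0.00108). Suv39h1, which extends H3K9 methylation in heterochromatin, was at 36.0 and 34.5 CPM, against 17.2 CPM, and passed DESeq2 (adjusted p = 0.0268). Ehmt1, which encodes GLP, had a log2 fold change of 0.38 and Suv39h2 one of 1.06, and neither passed either test. Ehmt2, the G9a gene and the 1 gene below TRAMP in both pools, had only 7 and 8 reads in Phf8-KO, against 21 in TRAMP. That is 0.26 and 0.24 CPM, against 0.73 CPM. Whether counts this low reflect the G9a message or how its reads were counted was not tested. The GC-corrected log2 fold change was 0.76 for Wiz (1.41 uncorrected), 0.96 for Suv39h1, 0.20 for Ehmt1 and 1.36 for Suv39h2.

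Other histone demethylases lay on both sides of TRAMP. Of 11 tested, 6 had both Phf8-KO pools above TRAMP and 4 below, with a median log2 fold change of 0.25. Kdm6b, an H3K27 demethylase, was at 42.4 and 63.1 CPM in Phf8-KO, against 23.5 CPM in TRAMP. Kdm4b, an H3K9 demethylase, was at 36.9 and 56.1 CPM, against 20.5 CPM. Both passed DESeq2 (adjusted p = 0.0344 and 0.0385). Kdm1b, an amine oxidase that demethylates H3K4, was at 45.7 and 36.3 CPM in Phf8-KO, against 72.0 CPM in TRAMP. Kdm4c, a paralog of Kdm4b, was at 47.3 and 52.5 CPM, against 78.3 CPM. These 2 lower genes passed neither test. With the GC trend removed the log2 fold change was 0.28 for Kdm6b, 0.36 for Kdm4b, -0.58 for Kdm1b and -0.38 for Kdm4c, so each was nearer to 0.

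The H3K4 methylation that the PHD finger binds is written by SET1 and MLL complexes and removed by KDM5 enzymes. Of 16 genes tested, 11 had both Phf8-KO pools above TRAMP and 3 below (median 0.38). Kmt2b, an H3K4 methyltransferase, was at 78.0 and 109 CPM in Phf8-KO, against 38.4 CPM in TRAMP, and passed DESeq2 (adjusted p = 0.00613), as did Setd1a above. Setd1b, the paralog of Setd1a, was at 28.4 and 39.2 CPM, against 16.9 CPM, and missed it (adjusted p = 0.0845). Kdm5c, an X-linked H3K4 demethylase that, like PHF8, is an intellectual disability gene in humans, was at 112 and 129 CPM in Phf8-KO, against 67.4 CPM in TRAMP. Its log2 fold change of 0.84 was under the 2-fold threshold. The GC-corrected log2 fold change was 0.44 for Kmt2b, 0.67 for Setd1a, 0.16 for Setd1b and 0.51 for Kdm5c.

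JmjC enzymes need 2-oxoglutarate and are inhibited by succinate and fumarate. Of 12 genes of this metabolism, 4 had both Phf8-KO pools above TRAMP and 6 below (median log2 fold change -0.23). Ogdh, the subunit of the 2-oxoglutarate dehydrogenase complex that consumes 2-oxoglutarate, stood apart at 139 and 141 CPM in Phf8-KO, against 52.1 CPM in TRAMP. Its log2 fold change of 1.43 (SE 0.19) passed DESeq2 (adjusted p = 1.99e-05), not edgeR (adjusted p = 0.101), and was 1.13 with the GC trend removed. Sdhc, a membrane subunit of succinate dehydrogenase, was at 101 and 103 CPM in Phf8-KO, against 62.6 CPM in TRAMP. Idh3g, a subunit of the NAD-dependent isocitrate dehydrogenase, was at 117 and 93.6 CPM, against 184 CPM, and the mitochondrial Idh2 at 137 and 131 CPM, against 91.7 CPM. Sdhc, Idh3g and Idh2 passed neither test. With the GC trend removed, the log2 fold change was 0.71 for Sdhc (0.70 without the correction), -0.93 for Idh3g (-0.80 without it) and 0.003 for Idh2 (0.55 without it).

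The last list held 13 regulators linked to neuroendocrine prostate cancer, of which 12 were tested. In 8 of them both Phf8-KO pools lay above TRAMP and in 3 below (median 0.74). Foxa2, a forkhead factor of neuroendocrine prostate cancer, was at 0.30 and 0.634 CPM in Phf8-KO, against 4.85 CPM in TRAMP, and passed DESeq2 (adjusted p = 0.0236). Aurka, a mitotic kinase, was at 26.2 and 24.5 CPM in Phf8-KO, against 10.1 CPM in TRAMP. Sox9, a transcription factor of prostate epithelium, was at 130 and 188 CPM, against 72.2 CPM. Aurka and Sox9 passed DESeq2 (adjusted p = 0.00957 and 0.0161). With the GC trend removed, the log2 fold change was -4.02 for Foxa2 (-3.35 without the correction), 1.11 for Aurka and 1.11 for Sox9. The group therefore held members on both sides, and Phf8 itself, at -0.33, lay between them.

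**Figure D5:**
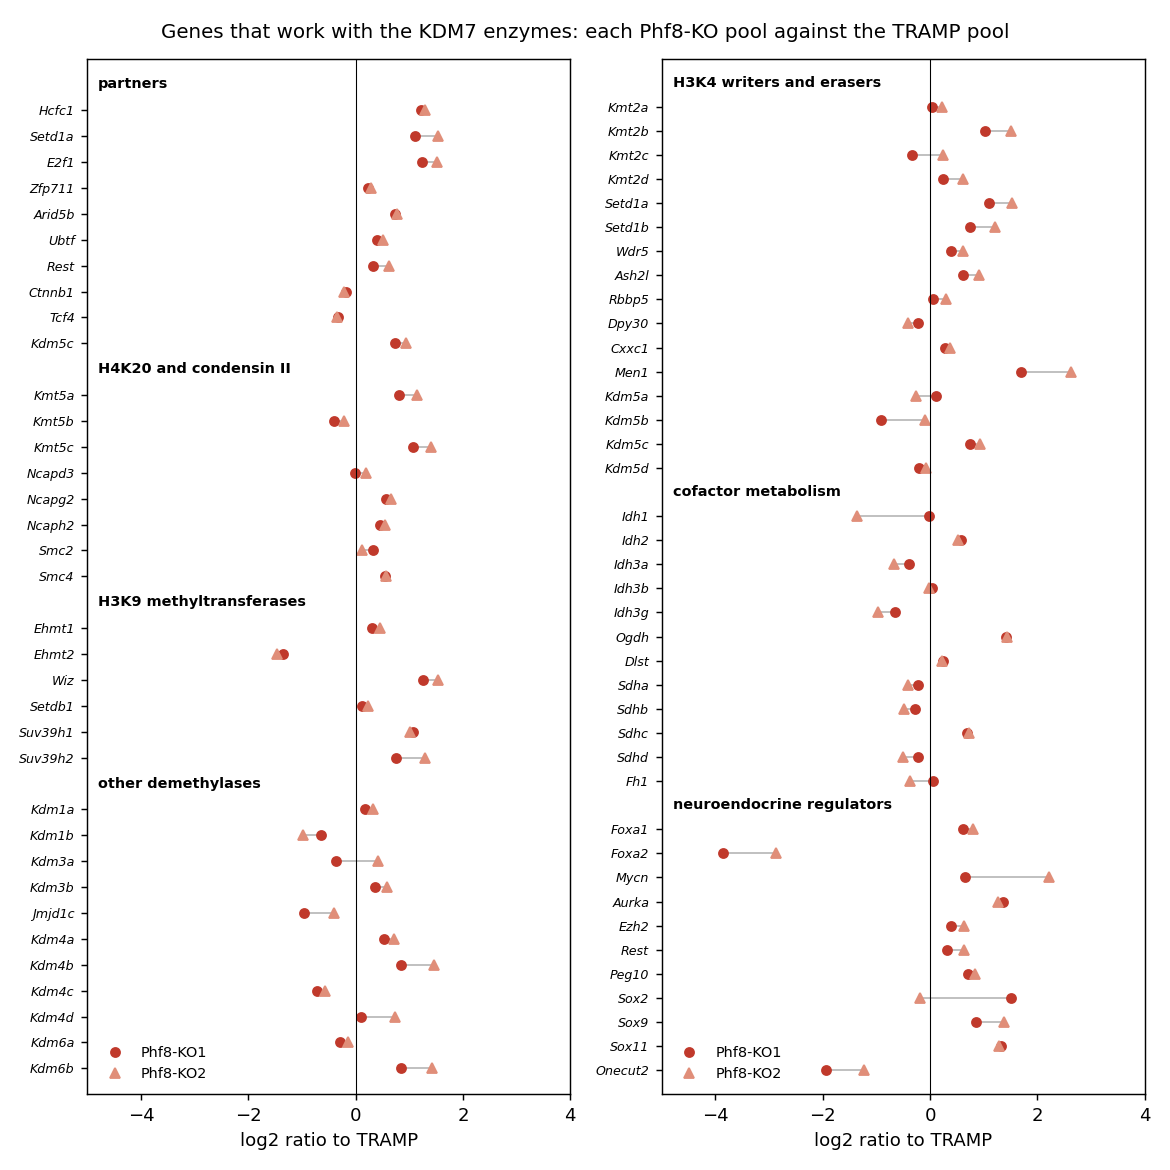
Log2 ratio to TRAMP (horizontal) of tested genes in the 7 lists (vertical, grouped by list), with a circle for Phf8-KO1 and a triangle for Phf8-KO2 joined by a line; genes in 2 lists are drawn in both. Both symbols lie right of 0 for most genes drawn, and those of Foxa2 lie farthest to the left.

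Phf8 and Phf2 lie in corresponding neighborhoods, with a FAM120 gene and a WNK kinase gene beside each. The X-linked gene next to Phf8, Fam120c, was at 31.2 and 37.3 CPM in Phf8-KO, against 42.0 CPM in TRAMP (log2 fold change -0.29). Its paralog next to Phf2, Fam120a, was at 285 and 312 CPM, against 168 CPM (0.83). Wnk2, the next gene, was at 106 and 142 CPM in Phf8-KO, against 60.2 CPM in TRAMP, a log2 fold change of 1.05 that was -0.02 with the GC trend removed. Of the 4 nearest protein-coding genes on each side of Phf2, 7 were tested, and 5 lay above TRAMP in both Phf8-KO pools and 0 below, beside 40.8% and 42.8% of all genes tested. Of the 8 around Phf8, 2 lay above and 5 below, and of the 8 around Kdm7a, 4 above and 3 below. By edgeR 0 of these neighbors passed. With no adjustment, 3 were higher at p under 0.05 around Phf2, 1 higher and 1 lower around Phf8, and 1 higher around Kdm7a, and DESeq2 called 1 higher in each neighborhood. Of all genes, 14.9% were higher and 12.2% lower with no adjustment, and DESeq2 called 9.42% higher, so these counts of 7 or 8 genes are too small to set any neighborhood apart. Across the 586 X-linked genes tested, 177 lay above TRAMP in both Phf8-KO pools and 323 below. Their median log2 fold change was -0.24, and -0.07 with the GC trend removed, beside -0.33 and -0.37 for Phf8.

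The genes nearest to each KDM7 gene in their pair of log2 ratios were sought among 11647 genes with a mean of at least 5 CPM, over these 3 libraries. For Phf8 they were Gatc, Trim12c and Fer, and 212 genes lay within a distance of 0.1. For Phf2 they were Xrcc1, Mfsd12 and Pacs2, with 70 genes within that distance. For Kdm7a they were Usp31, Fchsd2 and Slc22a29, with 10 genes. Likeness over 3 libraries is a description of these pools.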

How the data were processed

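RNA-seq was performed on total RNA from prostate tumors. Per the labels, the authors filtered reads, used HISAT2 to align them to GRCm38 and HTSeq to count genes, and the deposited values are raw counts. Versions, annotation and strand setting are not given in the sources used here. The deposited table held 0 columns of other samples.

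Counts were tested in R 4.3.3 with edgeR 4.0.16 (quasi-likelihood test, TMM, filterByExpr by group) and Benjamini-Hochberg adjustment over 18216 genes. A call needed an adjusted p under 0.05 together with a fold over 2 or below 0.5. The standard error is the log2 fold change divided by the square root of F. DESeq2 1.42.0, limma 3.58.1 (voom), other scalings and filters were alternatives. edgeR's default here is its legacy setting, so the planned pair of settings runs the other way round. The fits were tested on simulated data. Of the symbols, 74.97% matched GENCODE M21, which gave lengths and transcript GC content (93.17% of genes tested). A floor of 3 counts is 0.113 CPM in Phf8-KO1, 0.0905 CPM in Phf8-KO2 and 0.104 CPM in TRAMP.

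The genes and lists were chosen with earlier results of these data known. Named were the KDM7 genes, up to 4 genes per list with the smallest unadjusted p, up to 3 neighbors of each gene and the 3 genes nearest in pattern. Ehmt2 was added after its values had been seen. Some list genes are counted but not reported here by name. GC correction and scaling by Krt8, Krt18 and Epcam were also chosen after seeing the data.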

Additional observations from a re-analysis of the deposited data

How the results depend on the processing

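No paired analysis was possible because the TRAMP group is 1 library whose label carries no replicate number. Over 13 alternatives the log2 fold change of Phf8 stayed between -0.48 and -0.25 and never passed. Phf2 stayed between 0.68 and 1.44, and passed without a filter on low counts (1.38, adjusted p = 0.00776) and under DESeq2 (1.37, adjusted p = 0.000368). Kdm7a reached 0.03 with the GC correction and lay below 0 in the others. Without a Phf8-KO pool the range was -0.37 to -0.28 for Phf8, 1.30 to 1.41 for Phf2 and -0.78 to -0.11 for Kdm7a, and the share of Phf8 was 7.81% to 8.70%. It was 11.2% by coding length. Those settings leave 1 library a group and have no test, so counts of calls could not be fitted.

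The count of genes called over all genes (7) depended on the test. It was 2286 with no filter, 2280 under DESeq2, 46 with Krt8, Krt18 and Epcam scaling, 20 with library size only, 4 with the GC correction, and 0 by limma-voom or with a mean CPM of at least 1 (at an unadjusted p under 0.05, 2558 higher and 2574 lower by limma-voom, and 2426 higher and 2007 lower with that minimum). Genes tested numbered 25757 with no filter, and 18216 with library size only or with Krt8, Krt18 and Epcam scaling. Under DESeq2, 16269 genes had an adjusted p. Of the list genes (0 called), 15 passed with no filter and 15 under DESeq2. With library size only 1 passed, as did 1 with Krt8, Krt18 and Epcam scaling. The cause was not tested. Upper quartile scaling shifted the median log2 fold change of all genes to -0.14.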
